A study of Mus musculus with 9 samples.

Results

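Transcripts of S100 calcium-binding proteins and of annexins were compared between a parental tumour line and a pair of its liver metastatic derivatives. The members are 10 genes picked by symbol from the deposited expression values, the 6 S100 genes S100a1, S100a4, S100a6, S100a10, S100a11 and S100a13 and the 4 annexin genes Anxa1, Anxa2, Anxa3 and Anxa5, out of 16399 genes listed and 11287 genes tested. All 10 passed the filter on low values, which asked for 1 or more TPM in 3 or more libraries. TPM is a transcript's share of its library, scaled by transcript length and to the same total in each library. The study sequenced poly(A) RNA of cultured cells of the mouse colon carcinoma line MC38 in 9 libraries, 3 for each of 3 lines. MC38-P was the parental line. MC38-LM3a and MC38-LM3b came from it by 3 rounds of injection into the spleen of C57BL/6 mice and recovery of cells from the liver metastases. The paper calls them independently derived. It names MC38-LM1 and MC38-LM2 for the earlier rounds, and whether both derivatives shared these is not stated. All 3 lines descend from MC38 cells with a GFP-luciferase reporter and were grown without treatment, and each derivative is 1 cell line, so the libraries of a line are replicate samples of that line rather than of the selection. The comparisons with MC38-P ask which transcripts differed between the parental cells and the liver metastatic derivatives, and both comparisons share the same MC38-P libraries.

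S100 proteins are small calcium sensors with a pair of EF-hand calcium-binding loops. Most of them form dimers that expose a binding surface when calcium rises, and they act on cytoskeletal and membrane proteins inside the cell and, when released, on cell surface receptors. Annexins bind acidic phospholipids such as phosphatidylserine in a calcium-dependent way and organise membrane domains, vesicle traffic and the resealing of torn plasma membrane. Members of both families bind each other: S100a10 pairs with Anxa2 and S100a11 with Anxa1. In epithelial tumours S100a4, S100a6, Anxa1 and Anxa2 are best known for work on cell migration, invasion and cell surface proteolysis.

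The markers of the sampled cells were checked first. Of 8 epithelial markers, 6 reached 1 TPM in at least 1 library, with Krt8 between 744 and 1206 TPM and Krt18 between 707 and 981 TPM, whereas Epcam stayed at or below 6.31 TPM and the defining genes Cdh1 and Vil1 at or below 0.08 and 0.13 TPM. The summed TPM of the epithelial markers was 2157 ± 158 in MC38-P (SD, n = 3 here and below), against 1727 ± 118 for MC38-LM3a and 1602 ± 24.1 for MC38-LM3b. S100 and annexin transcripts are also abundant in macrophages and fibroblasts. The macrophage genes Ptprc, Csf1r, Lyz2 and Itgam were at or below 0.28 TPM in every library and only Cd68, between 27.7 and 45.6 TPM, reached 1 TPM. The summed macrophage markers, nearly all Cd68, were 28.9 ± 0.962 TPM in MC38-P, against 36.7 ± 3.74 TPM for MC38-LM3a and 43.6 ± 3.12 TPM for MC38-LM3b. Of the fibroblast and stellate cell markers, 4 reached 1 TPM. They were Col1a1, between 3.52 and 15.99 TPM, and Acta2, Pdgfrb and Pdgfra, each at or below 4.32 TPM. Col1a2 and Dcn were at or below 0.13 TPM. The summed TPM of the fibroblast and stellate cell markers was 21.7 ± 3.58 in MC38-P, against 8.96 ± 1.55 for MC38-LM3a and 10.9 ± 0.567 for MC38-LM3b. In the other marker lists, 2 neutrophil genes, 1 hepatocyte gene and 1 endothelial gene reached 1 TPM, and the highest summed TPM of any library was 8.19, 4.33 and 2.38 respectively. In such bulk samples, fewer cells expressing a gene and less RNA per cell cannot be told apart.

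The libraries differed in a way that touches these genes. Within MC38-P, replicate 3 deviated from its group mean along transcript length (Spearman rho across genes -0.65, against 0.53 and 0.43 in replicates 1 and 2), and within MC38-LM3a replicate 3 deviated the other way (0.67, against -0.57 and -0.54). The S100 transcripts are short, with a median of 681 nt against 2882 nt for all genes tested, and the annexin transcripts lie between (median 1634.5 nt). A fit corrected for transcript length and GC content is therefore given beside a member or family gene where it changed the call, and beside the counts of the other gene lists. Across the genes tested, the median log2 fold change came to 0.00 for MC38-LM3a and to 0.21 for MC38-LM3b. Thus a rise of 0.21 in MC38-LM3b is the change of the middle gene.

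Promoter sequence is shown for 4 members, because S100a4 and S100a6 lie close together and changed in opposite directions, S100a11 had the highest level, and Anxa1 had the largest rise of the annexin members in MC38-LM3a. The sequences are the 250 bases upstream of the RefSeq gene start on mouse build GRCm38.p6, given 5′ to 3′ on the gene's strand, S100a4 at chr3:90603520-90603769 (plus strand), S100a6 at chr3:90612644-90612893 (plus), S100a11 at chr3:93520246-93520495 (plus) and Anxa1 at chr19:20390672-20390921 (minus). Capitals mark matches on either strand to any of 5 motifs. The TATA box was searched as TATAAA, the GC box was searched as GGGCGG, the AP-1 site was searched as TGANTCA, the CCAAT box by those letters, and the Runx core site was searched as TGTGGT.
S100a4: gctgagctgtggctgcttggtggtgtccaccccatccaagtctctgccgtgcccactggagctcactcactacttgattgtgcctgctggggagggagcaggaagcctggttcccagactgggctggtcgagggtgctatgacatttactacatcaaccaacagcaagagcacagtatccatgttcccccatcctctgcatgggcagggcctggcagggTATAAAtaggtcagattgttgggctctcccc
S100a6: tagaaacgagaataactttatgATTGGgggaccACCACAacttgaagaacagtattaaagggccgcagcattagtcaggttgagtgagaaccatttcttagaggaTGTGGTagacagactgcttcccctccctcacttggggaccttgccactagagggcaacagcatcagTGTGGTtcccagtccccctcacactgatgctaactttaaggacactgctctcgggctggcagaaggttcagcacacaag
S100a11: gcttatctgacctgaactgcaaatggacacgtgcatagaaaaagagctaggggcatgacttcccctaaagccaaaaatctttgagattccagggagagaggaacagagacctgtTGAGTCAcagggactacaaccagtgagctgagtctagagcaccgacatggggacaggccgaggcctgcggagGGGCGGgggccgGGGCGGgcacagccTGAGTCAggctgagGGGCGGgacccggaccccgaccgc
Anxa1: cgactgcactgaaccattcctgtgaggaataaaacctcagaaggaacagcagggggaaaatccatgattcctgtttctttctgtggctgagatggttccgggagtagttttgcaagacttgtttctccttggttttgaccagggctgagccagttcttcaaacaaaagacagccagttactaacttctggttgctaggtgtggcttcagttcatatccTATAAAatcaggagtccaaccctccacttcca

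The windows of S100a4 and S100a6 shared no searched motif. S100a4 held 1 TATA box match, 31 bases before the start, and S100a6 held 1 CCAAT box and 3 Runx core matches. S100a11 held 3 GC box and 2 AP-1 matches, and Anxa1 held 1 TATA box match 32 bases before its start. A window was at hand for 8 members. The window of Anxa2 held 1 TATA box, 3 GC box and 1 AP-1 match, and those of S100a1, S100a13 and Anxa5 held none. Of 32851 RefSeq windows of this length, 12.4% held the TATA box letters, 32.7% those of the GC box, 6.75% those of the AP-1 site, 33.8% those of the CCAAT box and 14.05% those of the Runx core site. A match describes letters in the window and is not evidence of binding.

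These were abundant transcripts. Together the 10 genes took up 1.39% ± 0.0223 of all TPM in MC38-P, against 1.65% ± 0.0411 for MC38-LM3a and 1.64% ± 0.00376 for MC38-LM3b. In MC38-P the order of mean level was S100a11 (4623 ± 457 TPM), S100a10 (2292 ± 258), S100a6 (1843 ± 44.2), Anxa2 (1758 ± 41.7), S100a4 (1528 ± 121), Anxa1 (962 ± 27.8), Anxa5 (546.5 ± 6.75), Anxa3 (253 ± 8.47), S100a1 (41.7 ± 2.58) and S100a13 (35.0 ± 6.09). Only S100a1 and S100a13 overlapped with their neighbour in that order. Among all genes listed, S100a11 ranked 18 by mean TPM in MC38-P, and it ranked 9 for MC38-LM3a and 4 for MC38-LM3b. S100a4 ranked 94, 135 and 164, and it passed from above Anxa1 in every MC38-P library to below it in every library of both derivatives.

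Of the 10 genes, 7 were higher and 1 was lower in MC38-LM3a than in MC38-P at an adjusted p below 0.05 in limma, and the same counts, 7 and 1, held in MC38-LM3b. S100a6, S100a13 and the 4 annexin members were higher in both derivatives, and S100a4 was lower in both. S100a1 passed for MC38-LM3a and S100a11 for MC38-LM3b, and neither passed a direct test between the derivatives. Among all tested genes, 14.1% were higher and 13.8% lower in MC38-LM3a, while MC38-LM3b had 35.6% higher and 11.2% lower. The members' median log2 fold change was 0.33 for MC38-LM3a and 0.31 for MC38-LM3b, beside 0.00 and 0.21 for the whole set of tested genes. With each library centred on its median, 5 members were higher and 1 lower in MC38-LM3a, beside 2240 and 2273 of all tested genes. In MC38-LM3b S100a4, lower, was then the single member to pass, and the lowest adjusted p of a rise was 0.0601 (S100a13). At that centring the 4013 higher and 1263 lower genes of MC38-LM3b became 2586 and 2981 (2928 and 2767 after quantile normalization, 3298 and 3195 after the length and GC correction, which left 7 members higher and 1 lower). Quantile normalization gave 9 members past the threshold in each derivative. Over all tested genes it gave 2428 higher and 2310 lower in MC38-LM3a, beside the 2928 and 2767 in MC38-LM3b. In MC38-LM3b the members past the threshold then included S100a10, with its sign turned (0.13, limma adjusted p = 0.0289).

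The changes were moderate. The widest was -0.86, and in the main fit none of the 10 passed the study's threshold for differentially expressed genes. That threshold adds an absolute log2 fold change above 1 to the adjusted p. In the same fit 2.89% of tested genes met it in MC38-LM3a while 3.93% did in MC38-LM3b. With median centring S100a4 met it in MC38-LM3b (-1.09, limma adjusted p = 2.07e-04). Every MC38-LM3a library lay above every MC38-P library for 7 members and below for 1, against 20.3% and 15.9% of tested genes. The same held in MC38-LM3b for 8 members above and 1 below, against 51.3% and 15.4% of tested genes.

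**Figure D1:**
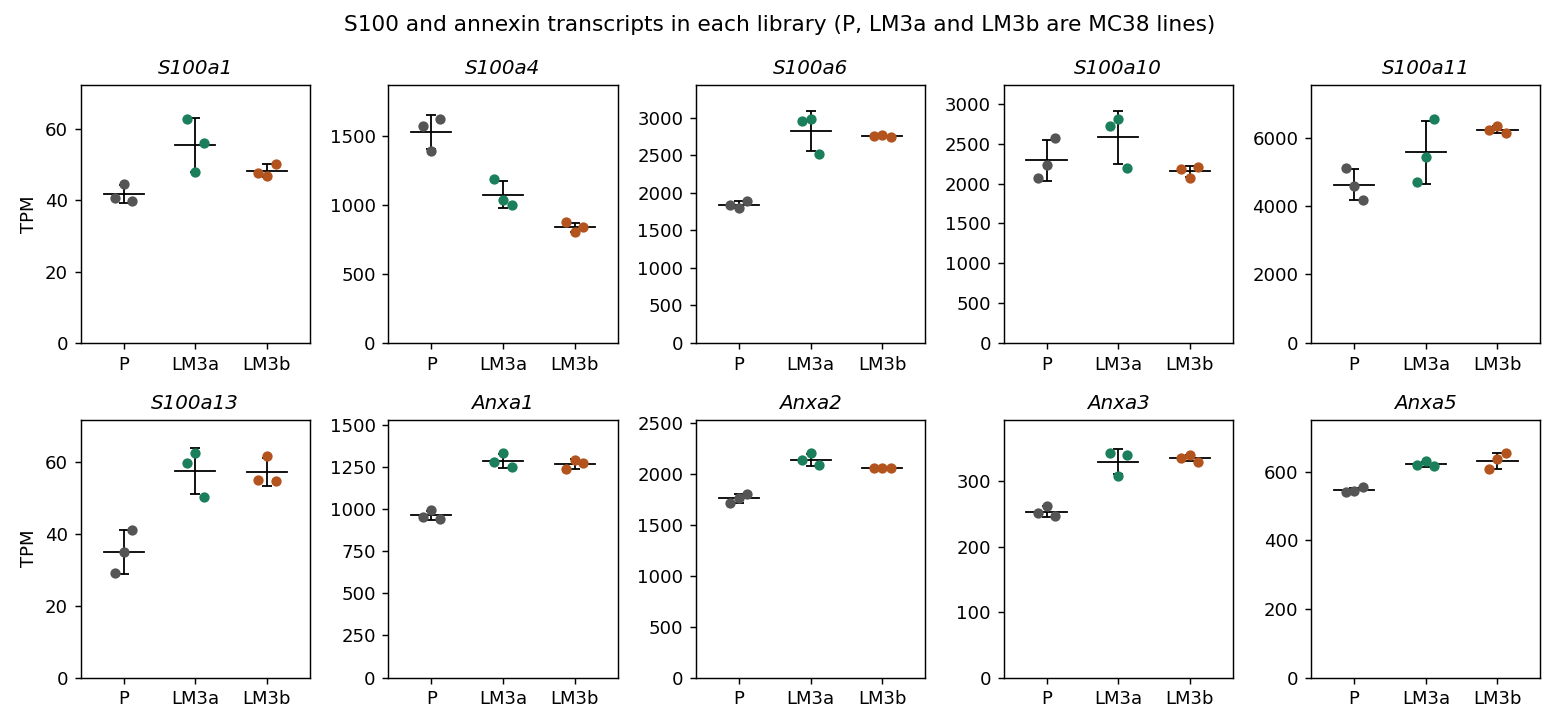
TPM of each of the 10 genes (vertical axes, each from 0) in the 3 libraries of MC38-P (P), MC38-LM3a (LM3a) and MC38-LM3b (LM3b), with a line at the mean and bars of 1 SD. S100a4 falls from a mean of 1528 TPM in P to 1074 and 837 TPM, while S100a6 goes from 1843 to 2821 and 2757 TPM.

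S100a4, also called metastasin, binds non-muscle myosin IIA and loosens its filaments, and it was the member that fell. Its level was 1568, 1392 and 1624 TPM in replicates 1 to 3 of MC38-P, 1185, 1037 and 1001 TPM in MC38-LM3a and 872, 804 and 836 TPM in MC38-LM3b. The 3 lines did not overlap. S100a4 fell by 29.7% in MC38-LM3a (log2 fold change -0.51 ± 0.078 SE, limma adjusted p = 8.27e-04) and fell by 45.2% in MC38-LM3b (-0.86 ± 0.078, limma adjusted p = 2.06e-05). It was lower at adjusted p below 0.05 in all 19 alternative analyses of each comparison, with log2 fold changes between -0.60 and -0.29 in MC38-LM3a and between -1.09 and -0.74 in MC38-LM3b. Its share of the summed TPM of the 6 S100 members went from 14.7% ± 0.946 to 8.86% ± 1.11 and 6.94% ± 0.270. S100a4 is also a fibroblast transcript, and the summed fibroblast and stellate markers, given above, were lower in the derivatives too. Among these markers Col1a1 reached the highest level, at 3.52 to 15.99 TPM across the libraries. Col1a2 and Dcn were at or below 0.13 TPM in every library. The part of such cells in the fall of S100a4 was not tested.

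S100a6, or calcyclin, is a partner of the calcyclin-binding protein and of annexins, and it lies near S100a4 on chromosome 3. It stood at 1837, 1803 and 1890.5 TPM in MC38-P, then at 2957, 2990.2 and 2516 TPM in MC38-LM3a, and at 2756.5, 2766 and 2748 TPM for MC38-LM3b. Every library of both derivatives exceeded every MC38-P library. S100a6 was 53.0% higher in MC38-LM3a (log2 fold change 0.61 ± 0.066 SE, limma adjusted p = 9.60e-05) and 49.5% higher in MC38-LM3b (0.58 ± 0.066, limma adjusted p = 9.49e-05). In MC38-LM3b this was 0.37 above the median of all tested genes, and the call was lost with median centring (0.36, adjusted p = 0.0789) while it held in the other 18 alternatives.

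The opposite changes of S100a4 and S100a6 were plain in each library. The ratio of S100a4 to S100a6 TPM, which no scaling of a whole library alters, was 0.854, 0.772 and 0.859 in MC38-P, then 0.401, 0.347 and 0.398 in MC38-LM3a, and 0.316, 0.291 and 0.304 for MC38-LM3b. The lowest MC38-P value was above the highest value of either derivative, and the values of MC38-LM3a were all above those of MC38-LM3b. The ratio was formed after both changes were known and carries no test. On GRCm38.p6 the start of S100a4 and the end of S100a6 are 10.6 kb apart. S100a5, which lies between them in map order, was at 0.83 TPM in 1 MC38-P library, at 0.89 and 0.63 TPM in 2 MC38-LM3b libraries and at 0 in the others, and was not tested.

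**Figure D2:**
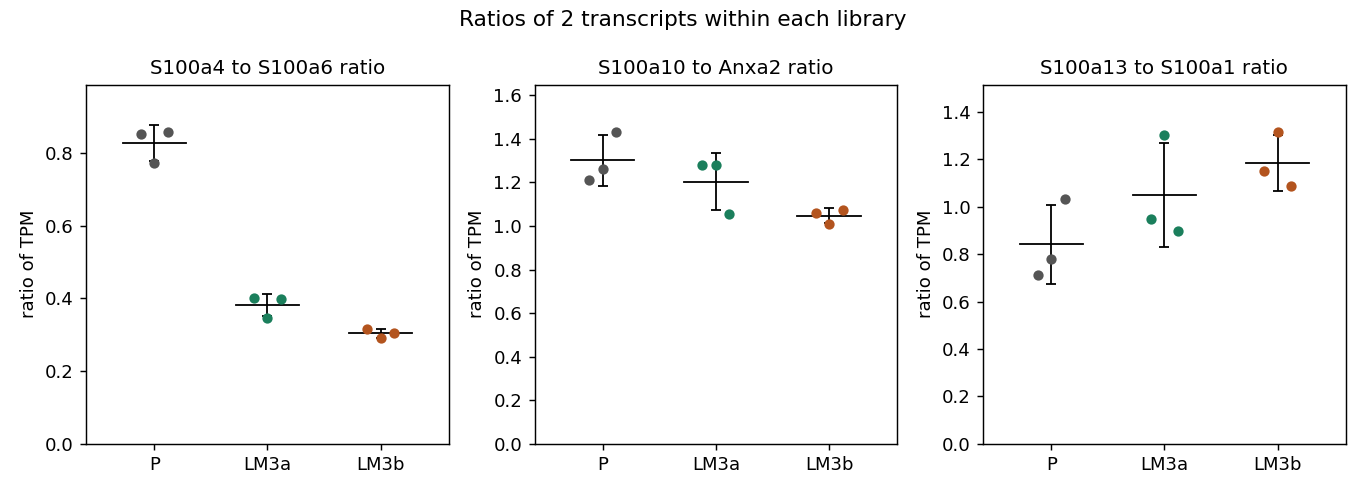
Ratios of the TPM of 2 genes within each library (vertical axes, no unit, from 0) for MC38-P (P), MC38-LM3a (LM3a) and MC38-LM3b (LM3b), with a line at the mean and bars of 1 SD. The S100a4 to S100a6 ratio falls from 0.828 in P to 0.382 and 0.304 without overlap, whereas the other 2 ratios overlap between P and LM3a.

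S100a13 takes part in the unconventional export of FGF1 from cells, and S100a1 is best known as a regulator of calcium handling in muscle. S100a13 was at 29.0, 34.8 and 41.2 TPM in MC38-P, then at 59.7, 62.3 and 50.3 TPM in MC38-LM3a, and at 54.9, 61.6 and 54.7 TPM for MC38-LM3b. Neither derivative overlapped with MC38-P, and S100a13 had the largest rise of the 10 genes in both comparisons. It was 64.2% higher in MC38-LM3a (log2 fold change 0.71 ± 0.13 SE, limma adjusted p = 0.00197) and 63.1% higher in MC38-LM3b (0.70 ± 0.13, limma adjusted p = 0.00141). The latter call was lost with median centring alone among the 19 alternatives (0.48, adjusted p = 0.0601).

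S100a1 was at 40.6, 44.7 and 39.9 TPM in MC38-P, then at 62.9, 47.8 and 55.95 TPM in MC38-LM3a, and at 47.6, 46.8 and 50.3 TPM for MC38-LM3b. All libraries of the derivatives lay above those of MC38-P, with the widest spread in MC38-LM3a. It was 33.2% higher in MC38-LM3a (log2 fold change 0.40 ± 0.10 SE, limma adjusted p = 0.0128), which was lost without MC38-LM3a replicate 1 (0.30, adjusted p = 0.0543). In MC38-LM3b the log2 fold change of 0.20, with a 95% interval from -0.01 to 0.42, did not pass in limma (adjusted p = 0.110). It passed in 2 of the 19 alternatives, among them the length and GC correction (0.27, adjusted p = 0.0422, or 0.0722 with the replicate block), and with median centring the direction turned (-0.02). S100a1 and S100a13 are transcribed head to head on GRCm38.p6. The starts used for the promoter windows lie 104 bases apart, whereas the whole annotated loci, predicted transcripts included, share 98 bases. The handling of strand is not given in the sources used here, so reads from any shared bases cannot be assigned. The ratio of S100a13 to S100a1 was 0.841 ± 0.168 in MC38-P, against 1.05 ± 0.221 for MC38-LM3a and 1.19 ± 0.118 for MC38-LM3b, and MC38-LM3a overlapped with both other lines. The genes most like S100a13 over the 9 libraries, by Pearson r on the log2 scale, were 2210016F16Rik (0.993), Rnh1 (0.986) and Rer1 (0.985), and 43 tested genes had an r of at least 0.95. These r values describe 9 libraries in 3 lines that share their scaling.

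S100a11, or calgizzarin, is the S100 partner of Anxa1 and takes part in membrane resealing, and it was the most abundant member. It stood at 5096, 4588 and 4184 TPM in MC38-P, then at 4707, 5439 and 6553 TPM in MC38-LM3a, and at 6211, 6329 and 6129 TPM for MC38-LM3b. MC38-LM3a overlapped with MC38-P, and MC38-LM3b lay above it. In MC38-LM3a the log2 fold change was 0.26 ± 0.11 SE and did not pass (limma adjusted p = 0.101), although it passed without MC38-LM3a replicate 1 (0.37, adjusted p = 0.0226) and, at 0.098, with library weights (adjusted p = 0.0293). Without MC38-LM3a replicate 3 it was 0.135 (adjusted p = 0.203). In MC38-LM3b S100a11 was 34.6% higher (0.43 ± 0.11, limma adjusted p = 0.00840), 0.22 above the median of all tested genes, and this call was lost with median centring (0.21, adjusted p = 0.223) and with the replicate block and the length and GC correction together (0.45, adjusted p = 0.0519). With quantile normalization it was 0.72 (adjusted p = 0.00651). A pseudogene copy of S100a11 lies on chromosome 12 and could share reads with it.

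S100a10, or p11, is the calcium-independent S100 protein that joins Anxa2 in a complex binding plasminogen at the cell surface. It was at 2072, 2228 and 2575 TPM in MC38-P, then at 2726, 2816 and 2195 TPM in MC38-LM3a, and at 2179.7, 2073 and 2203 TPM for MC38-LM3b. Both derivatives overlapped with MC38-P, and the libraries that stood apart were the third replicates of MC38-P and MC38-LM3a. Its log2 fold change was 0.17 in MC38-LM3a (95% interval -0.05 to 0.39, limma adjusted p = 0.252), against -0.09 in MC38-LM3b (-0.31 to 0.14, limma adjusted p = 0.495). Without MC38-LM3a replicate 3 S100a10 was higher in MC38-LM3a (0.28, adjusted p = 0.0135), as it was with library weights (0.296, adjusted p = 2.09e-07) and with quantile normalization (0.18, adjusted p = 0.00677), whereas it was 0.098 without MC38-P replicate 1 and 0.10 without MC38-LM3a replicate 2. For MC38-LM3b the sign turned with quantile normalization (0.13, adjusted p = 0.0289). The ratio of S100a10 to Anxa2 was 1.30 ± 0.117 in MC38-P, against 1.20 ± 0.130 for MC38-LM3a and 1.05 ± 0.0342 for MC38-LM3b. MC38-LM3a overlapped with both other lines in this ratio, and every MC38-LM3b value was below every MC38-P value. The ratio carries no test. Its transcripts differ in length (685 and 1447 nt), and its highest value, 1.43, was that of MC38-P replicate 3.

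Anxa1, which mediates glucocorticoid effects and restrains inflammation through formyl peptide receptors, stood at 949.6, 994 and 942.5 TPM in MC38-P, then at 1277, 1329 and 1249 TPM in MC38-LM3a, and at 1236, 1292 and 1271 TPM for MC38-LM3b. Both derivatives lay above MC38-P in every library. It was 33.6% higher in MC38-LM3a (log2 fold change 0.42 ± 0.050 SE, limma adjusted p = 1.70e-04) and 31.6% higher in MC38-LM3b (0.40 ± 0.050, limma adjusted p = 1.65e-04). The length and GC correction reduced the rise in MC38-LM3b to 0.16 (adjusted p = 0.0390, or 0.0558 with the replicate block added), and with median centring the call was lost (0.17, adjusted p = 0.221).

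Anxa2 links actin to membranes and works with S100a10. Its level was 1714, 1763 and 1797 TPM in MC38-P, then 2133, 2199.8 and 2082 TPM in MC38-LM3a, and 2056, 2057 and 2055 TPM for MC38-LM3b. The lines did not overlap, and MC38-LM3b lay between the others. Anxa2 was 21.6% higher in MC38-LM3a (log2 fold change 0.28 ± 0.046 SE, limma adjusted p = 0.00126) and 16.9% higher in MC38-LM3b (0.23 ± 0.046, limma adjusted p = 0.00308). In MC38-LM3b that was 0.02 above the median of all tested genes. With median centring the calls were lost for MC38-LM3a (0.28, adjusted p = 0.103) as well as MC38-LM3b (0.00, adjusted p = 0.987). Quantile normalization gave 0.39 in MC38-LM3b (adjusted p = 3.50e-04).

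Anxa3, an annexin with roles in phagocytes and in tumour cells, was at 251, 263 and 246 TPM in MC38-P, then at 343, 308 and 339 TPM in MC38-LM3a, and at 336, 339.8 and 330.0 TPM for MC38-LM3b. Each derivative library exceeded each MC38-P library. Its rise came to a log2 fold change of 0.38 ± 0.058 SE for MC38-LM3a (30.2% higher, limma adjusted p = 8.33e-04) and of 0.40 ± 0.058 for MC38-LM3b (32.3% higher, limma adjusted p = 3.93e-04). After the length and GC correction the rise in MC38-LM3b was 0.24 (adjusted p = 9.61e-04), and with median centring 0.18 (adjusted p = 0.0930).

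Anxa5, whose protein binds phosphatidylserine on dying cells and forms lattices on damaged membrane, had the smallest change of the 4 annexin members in MC38-LM3a. It was at 541, 544 and 554 TPM in MC38-P, then at 618, 630.0 and 617 TPM in MC38-LM3a, and at 607, 636 and 653 TPM for MC38-LM3b. The derivatives did not overlap with MC38-P. The change on the log2 scale was 0.19 ± 0.049 SE in MC38-LM3a (13.8% higher, limma adjusted p = 0.0161), and it was 0.21 ± 0.049 in MC38-LM3b (15.6% higher, limma adjusted p = 0.00606). In MC38-LM3a the call was lost in 7 of the 19 alternatives, among them leaving out MC38-LM3a replicate 2 (0.177, adjusted p = 0.0550) or MC38-P replicate 2 (0.183, adjusted p = 0.0589). In MC38-LM3b the change equalled that of the middle gene, the length and GC correction left 0.08 (adjusted p = 0.191), and with median centring the direction turned (-0.01, adjusted p = 0.915).

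**Figure D3:**
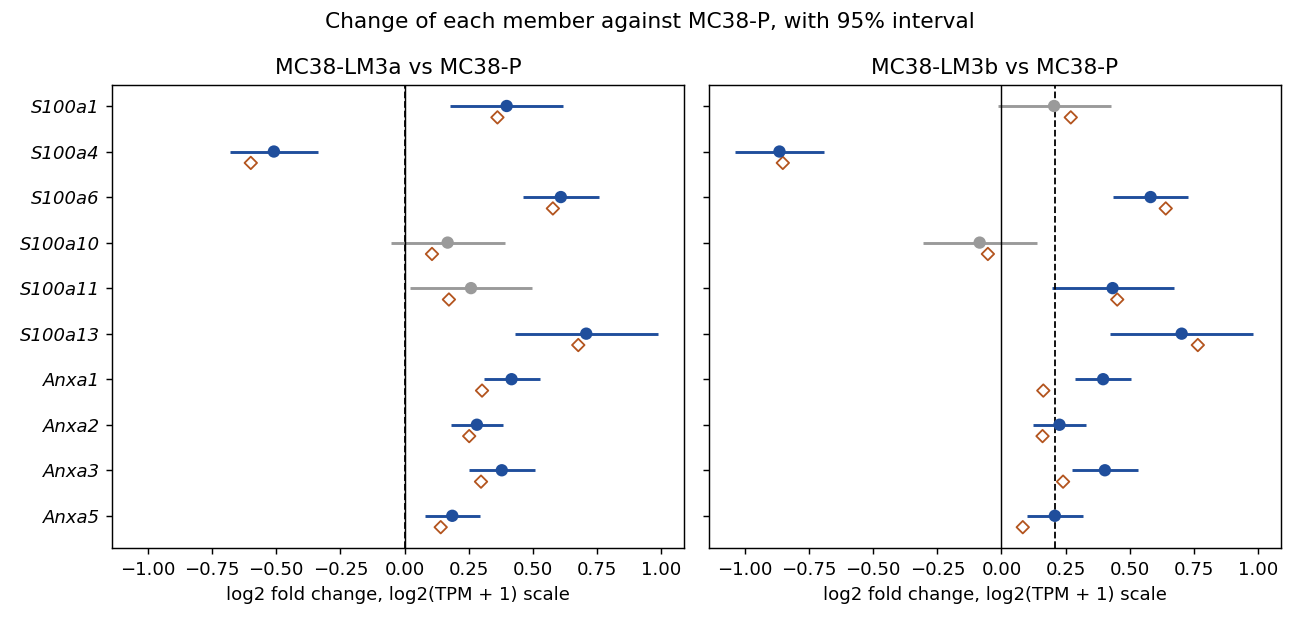
Log2 fold change of each of the 10 genes against MC38-P on the log2(TPM + 1) scale (horizontal axes) in MC38-LM3a and MC38-LM3b, as points with 95% intervals, blue at a limma adjusted p below 0.05 and grey otherwise; open diamonds are the values after the length and GC correction and the dashed line is the median of all tested genes. S100a4 alone is lower at that threshold, and in MC38-LM3b Anxa2 and Anxa5 sit at the dashed line of 0.21, Anxa5 with a direction that turns under median centring.

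Summed by family, the 6 S100 members came to 10360 ± 276 TPM in MC38-P, against 12150 ± 395 TPM for MC38-LM3a and 12070 ± 50.6 TPM for MC38-LM3b, and the 4 annexin members to 3520 ± 56.6, 4376 ± 89.8 and 4289 ± 48.4 TPM. In both sums every derivative library was above every MC38-P library. These sums carry no test. The summed epithelial markers moved the other way. The summed macrophage markers, given above, moved the same way without overlap, with Ptprc, Csf1r, Lyz2 and Itgam at or below 0.28 TPM in every library. The part of either shift in these values was not tested. For 8 of the 10 genes the SD between replicates was smallest in MC38-LM3b, where that of Anxa2 was 0.861 TPM around a mean of 2056 TPM. The summed epithelial and fibroblast markers also had their smallest SD there (24.1 and 0.567 TPM). The MC38-LM3b libraries also deviated least along transcript length (Spearman rho 0.0223, -0.0178 and -0.00846). The share of all tested genes with their smallest SD in MC38-LM3b was not counted, so that count is not read as a trait of the members.

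The derivatives were also set against each other. None of the 10 genes differed between MC38-LM3b and MC38-LM3a at a limma adjusted p below 0.05, which 0.0532% of tested genes met. At an unadjusted p below 0.05 the counts were 2 of the 10 and 4296 of the 11287 tested genes, and the middle tested gene had a log2 fold change of 0.21. The log2 fold change of MC38-LM3b over MC38-LM3a was -0.36 for S100a4 (95% interval -0.53 to -0.18, limma adjusted p = 0.119) and -0.25 for S100a10 (-0.47 to -0.03, limma adjusted p = 0.119). Without MC38-LM3a replicate 3 the tested genes that passed went from 6 to 6351, and 3 members passed: S100a4 (-0.41, adjusted p = 0.00388), S100a10 (-0.36, adjusted p = 0.00433) and S100a11 (0.30, adjusted p = 0.00975). With library weights, 6 members and 8681 of the 11287 tested genes passed. For S100a6 the 95% interval of the difference ran from -0.18 to 0.12, for S100a13 from -0.28 to 0.27 and for Anxa1 from -0.13 to 0.09, before any allowance for that median. With median centring the differences were -0.25 for S100a6, -0.24 for Anxa1, -0.58 for S100a4 and -0.47 for S100a10, with adjusted p from 0.166 to 0.288.

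Other members of both families gave the surroundings of these 10 genes. The symbol list held 18 S100 genes, of which 13 were listed and 8 tested, and the 12 S100 genes listed on chromosome 3 lie within 3054 kb on GRCm38.p6, the 6 S100 members among them. The tested S100 genes outside the members were S100a3, at 13.5 to 20.0 TPM, which passed in neither comparison, and S100a7a, a relative of the antimicrobial psoriasin. S100a7a was at 1.20, 0.71 and 0.53 TPM in MC38-P, then at 1.71, 1.18 and 1.22 TPM in MC38-LM3a, and at 1.87, 1.36 and 1.76 TPM for MC38-LM3b. It was higher in MC38-LM3b at these low levels (log2 fold change 0.57 ± 0.16 SE, limma adjusted p = 0.0153). That call was lost with median centring, where 0 of these 2 genes were higher in MC38-LM3b and 1 was higher in MC38-LM3a. S100a8, a subunit of calprotectin from myeloid cells, was listed at 0 in 7 libraries and at 1.18 and 1.47 TPM in the third replicates of MC38-P and MC38-LM3a. Of 5 tested genes of other families between the outermost S100 genes on chromosome 3, 1 was higher and 1 lower in MC38-LM3a and 2 were higher and 1 lower in MC38-LM3b, with median log2 fold changes of -0.26 and 0.04. These counts are near the shares of all tested genes, of which 14.1% and 35.6% were higher and 13.8% and 11.2% lower. The correction gave 1 higher and 2 lower, then 2 and 1, beside 3002 and 2809, then 3298 and 3195, over the whole set of tested genes. Before the correction Crct1 was the gene higher in both comparisons and Sprr1b the gene lower in both.

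Of 10 tested annexin genes, 7 were higher and 1 lower in each derivative. With median centring 5 were higher and 2 lower in MC38-LM3a and 2 higher and 3 lower in MC38-LM3b. That centring gave 2240 higher and 2273 lower, then 2586 and 2981, over all tested genes, and the MC38-LM3b counts are near those shares. The length and GC correction gave 7 higher and 2 lower, then 5 and 2. Among all tested genes, 14.1% and 35.6% were higher and 13.8% and 11.2% lower, and the length and GC correction gave 3002 higher and 2809 lower, then 3298 and 3195. The 6 tested annexins outside the members included the gene of either family with the largest change. Anxa8, an annexin of stratified epithelia and endosomes, was at 15.9, 16.9 and 16.9 TPM in MC38-P, then at 2.37, 2.91 and 3.06 TPM in MC38-LM3a, and at 1.70, 2.50 and 2.67 TPM for MC38-LM3b. It fell by 83.2% in MC38-LM3a (log2 fold change -2.22 ± 0.14 SE, limma adjusted p = 1.97e-06) and fell by 86.2% in MC38-LM3b (-2.43 ± 0.14, limma adjusted p = 8.02e-07), and it was the only annexin past the fold threshold. Anxa11, which tethers RNA granules to lysosomes, went from 87.4 ± 7.17 TPM to 118 ± 6.20 and 135 ± 3.10 TPM (log2 fold changes 0.43 and 0.62, limma adjusted p = 0.00167 and 1.15e-04). Anxa4, an annexin of epithelial membranes, rose by 0.42 and 0.59 (limma adjusted p = 0.00240 and 2.04e-04), and Anxa7 by 0.32 and 0.37 (limma adjusted p = 0.00257 and 6.61e-04), the latter lost after the length and GC correction (0.17, adjusted p = 0.112). Anxa6, at 41.5 to 51.5 TPM, and Anxa9, at 4.24 to 7.14 TPM, passed in neither comparison. After the length and GC correction Anxa9 was lower in MC38-LM3a (-0.42, adjusted p = 0.00554) and Anxa6 was lower in MC38-LM3b (-0.20, adjusted p = 0.0113).

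**Figure D4:**
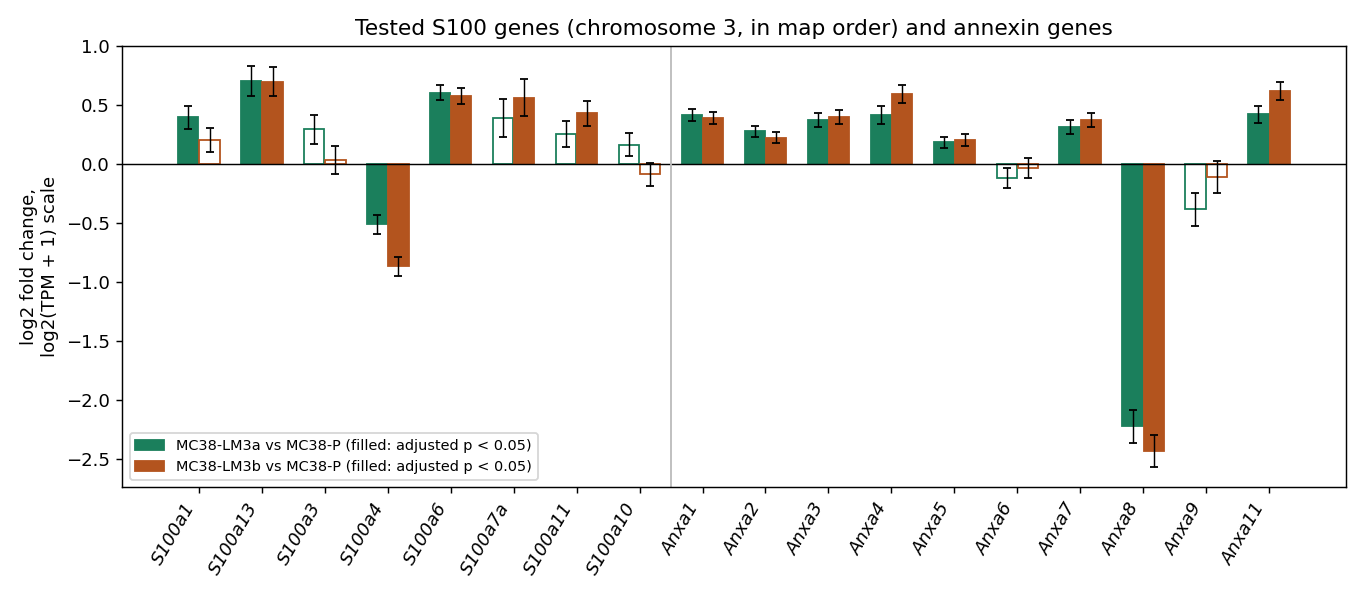
Log2 fold change against MC38-P on the log2(TPM + 1) scale (vertical axis) of the 8 tested S100 genes, in map order on chromosome 3, and of the 10 tested annexin genes, with bars of 1 SE, for MC38-LM3a (green) and MC38-LM3b (orange), filled at a limma adjusted p below 0.05. S100a4 and Anxa8 are the genes of their families that were lower at that threshold in both derivatives, at -0.86 and -2.43 in MC38-LM3b, and Anxa5 in MC38-LM3b is a rise that turns in direction with median centring.

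Genes for proteins that S100 proteins and annexins bind were counted next. Of 18 tested binding partners, 2 were higher and 2 lower in MC38-LM3a, and 8 were higher and 1 lower in MC38-LM3b (median log2 fold changes 0.07 and 0.17). These shares are near those of all tested genes (14.1% and 13.8%, then 35.6% and 11.2%). With median centring the counts were 4 and 4 in MC38-LM3a, then 7 and 5 for MC38-LM3b, beside 2240 and 2273, then 2586 and 2981, of all tested genes. The length and GC correction gave 6 higher and 5 lower in MC38-LM3a, then 7 and 6 for MC38-LM3b, and with it the counts over all tested genes were 3002 and 2809, then 3298 and 3195. The largest rise among those past the test in both was that of Dysf, whose product dysferlin reseals muscle membrane with annexins, from 20.3 ± 3.46 TPM to 32.2 ± 6.73 and 43.4 ± 1.04 TPM (log2 fold changes 0.63 and 1.07, limma adjusted p = 0.00965 and 3.26e-04). The fall was that of Cacybp, the calcyclin-binding protein that is a partner of S100a6, from 209 ± 4.36 TPM to 179 ± 3.49 and 177 ± 3.22 TPM (-0.22 and -0.24, limma adjusted p = 0.00921 and 0.00418). S100a6 rose in the same libraries.

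Of 6 tested receptors for S100 proteins and annexins, 3 were higher and 1 lower in each derivative (medians 0.16 and 0.24), with the same counts after the length and GC correction and 2 higher and 1 lower in each with median centring. Among all tested genes, 14.1% and 35.6% were higher and 13.8% and 11.2% lower. Over that whole set median centring gave 2240 higher and 2273 lower, then 2586 and 2981. The length and GC correction gave 3002 and 2809, then 3298 and 3195. Tlr4, an innate immune receptor that released S100 proteins can engage, went from 15.3 ± 2.43 TPM to 21.2 ± 3.81 and 26.8 ± 0.0777 TPM (0.44 and 0.78, limma adjusted p = 0.0369 and 0.00135). Alcam, an adhesion molecule, went down from 10.1 ± 2.07 TPM to 3.85 ± 0.835 and 5.57 ± 0.0681 TPM (-1.19 and -0.74, limma adjusted p = 4.01e-04 and 0.00441).

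Of 17 tested genes of plasma membrane repair, with calpains, ESCRT subunits, caveolar proteins and the ferlin Myof but no S100 gene or annexin (Dysf was counted among the binding partners), 9 were higher in MC38-LM3a while 14 were higher in MC38-LM3b (medians 0.27 and 0.42, against 0.00 and 0.21 for all tested genes, of which 14.1% and 35.6% were higher), and the others did not pass. The length and GC correction gave 14 higher and 2 lower in MC38-LM3a, then 12 and 1 for MC38-LM3b, beside 3002 and 2809, then 3298 and 3195, of all tested genes. Median centring gave 10 higher and 2 lower in MC38-LM3a and 8 higher and 1 lower in MC38-LM3b, beside 2240 and 2273, then 2586 and 2981, of all tested genes. The largest rise in this list was that of Capn1, a calcium-activated protease, from 62.6 ± 2.45 TPM to 90.6 ± 6.54 and 103 ± 3.17 TPM (0.53 and 0.72, limma adjusted p = 3.64e-04 and 3.91e-05). Of 13 tested genes for calmodulins and other EF-hand calcium sensors, 7 were higher and 1 lower in MC38-LM3a and 10 were higher in MC38-LM3b (medians 0.19 and 0.25). The shares of all tested genes were 14.1% and 35.6% higher and 13.8% and 11.2% lower. Median centring gave 5 higher and 1 lower in MC38-LM3a, then 3 and 1 for MC38-LM3b, beside the 2240 and 2273, then 2586 and 2981, of all tested genes. With the length and GC correction the counts were 8 higher and 1 lower in MC38-LM3a, then 4 and 1 for MC38-LM3b, beside 3002 and 2809, then 3298 and 3195. In both settings the higher count of MC38-LM3b is near the share of all tested genes. Efhd2, a calcium-binding regulator of actin, had the largest mean rise among those past the test in both comparisons, from 136 ± 2.46 TPM to 191 ± 3.89 and 194 ± 6.25 TPM (0.48 and 0.51, limma adjusted p = 1.12e-04 and 6.19e-05).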

How the data were processed

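The authors extracted total RNA from cultured cells of the parental line MC38-P and of both derivatives, enriched poly(A) RNA, primed cDNA at random and sequenced it on the DNBSEQ platform, with 3 biological replicates per line. The deposited values are TPM per gene and library, made by the authors; their processing notes name HISAT and GRCm39, and the handling of strand and the read counts are not given in the sources used here, so the depth is unknown and no counting interval is given. Whether replicates came from separate cultures is not stated further, and p-values measure the spread between these samples.

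Groups were taken from the sample titles. Genes that reached 1 TPM in 3 or more libraries entered limma 3.58.1 in R 4.3.3 on log2(TPM + 1), with 1 mean per line over all 9 libraries, a trended variance, two-sided tests and Benjamini-Hochberg adjustment over 11287 genes. The study's count-based test could not be run on TPM, and its thresholds were kept (adjusted p below 0.05, absolute log2 fold change above 1). The added 1 shrinks fold changes of low genes. The alternatives were a pseudocount of 0.1, no filter, only the compared groups, a replicate block, a correction for transcript length and GC content (loess per library, span 0.3, for the 98.3% of tested genes with both values), both together, quantile normalization, median centring, library weights, no variance trend, and leaving out each library. The steps were tested on simulated data. Tables were handled in Python 3.11.15 with pandas 2.3.3, scipy 1.17.1 and matplotlib 3.10.9. Files and reference differ in build, so no gene coordinates are given beyond RefSeq GRCm38.p6 windows and distances.

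The members and gene lists were chosen with earlier results of these data known. All 10 members are named, other tested S100 and annexin genes with values where past the test, and from each further list the largest rise and fall by mean change among genes past the test in both comparisons with MC38-P.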

Additional observations from a re-analysis of the deposited data

How the results depend on the processing

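Of the 190 member values recomputed in each comparison with MC38-P (10 genes under 19 alternatives), 176 in MC38-LM3a and 174 in MC38-LM3b kept their direction and side of the threshold. S100a4 kept its call in all of them. The direction turned in MC38-LM3b for S100a1 (-0.018) and Anxa5 (-0.015) with median centring and for S100a10 with quantile normalization (0.13) and without MC38-P replicate 3 (leave-one-out range -0.155 to 0.002).

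Members past the threshold numbered 8 in each comparison with MC38-P. In MC38-LM3b they numbered 1 with median centring, beside 5567 of all tested genes. With the replicate block and the length and GC correction together they numbered 5, beside 6126 of the 11096 genes in that fit. That member count is near the share of all genes. Leaving out libraries gave 7 to 9 members in MC38-LM3a and 8 to 8 in MC38-LM3b. Over all genes, 3160 passed in MC38-LM3a and 5276 in MC38-LM3b. In MC38-LM3a the count was 5811 with the length and GC correction, 8817 with library weights, 2105 with the compared groups alone and 5426 with block and correction together, and 2083 (without MC38-P replicate 2) to 4211 (without MC38-LM3a replicate 3) in the leave-one-out fits. In MC38-LM3b it was 9307 with library weights and 3702 to 6637 in the leave-one-out fits.

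Replicate numbers did not pair the libraries (correlations of same-numbered deviations from -0.66 to 0.07). With the replicate block, 2200 genes and 7 members passed in MC38-LM3a, where Anxa5 was lost (0.186, adjusted p = 0.0511), and 3891 genes and 8 members in MC38-LM3b.

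Between the derivatives 6 genes and 0 members passed. The gene count was 18 with the length and GC correction, 8681 with library weights, 12 with median centring, 3 with the compared groups alone, 2 with a pseudocount of 0.1, 10 with quantile normalization, 2 with the replicate block, and 0 to 6351 (0 to 3 members) in the leave-one-out fits, the top without MC38-LM3a replicate 3. Members numbered 6 with library weights. Differences near 0 turned in direction with the length and GC correction, with or without the block, for S100a6 (0.063), S100a13 (0.089), Anxa3 (-0.058) and Anxa5 (-0.058); with quantile normalization for S100a6 (0.12), Anxa1 (0.054), Anxa2 (0.14) and Anxa3 (-0.022); and with median centring for S100a11 (-0.048), Anxa3 (-0.20) and Anxa5 (-0.20). The leave-one-out ranges that cross 0 were -0.109 to 0.015 for S100a6, -0.097 to 0.055 for S100a13, -0.042 to 0.003 for Anxa1, -0.025 to 0.052 for Anxa3 and -0.002 to 0.051 for Anxa5. The cause of these moves was not tested. TPM keep no read depth, so low genes such as S100a7a carry an error that cannot be given.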
